A study of Mus musculus with 4 samples.

Results

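Oxidative phosphorylation is the process by which mitochondria use the electrons of nutrients to make ATP. The genes described here are the protein-coding genes of the nucleus whose symbols begin with Nduf followed by a, b, c, s or v, with Uqcr, with Cox4 to Cox8 or with Atp5, together with Sdha, Sdhb, Sdhc and Sdhd. The symbols were taken from GENCODE M21, and 94 of the 55421 genes listed in the count tables were members. They comprised 36 genes of complex I, 4 of complex II, 8 of complex III, 20 of complex IV and 17 of complex V, with 8 assembly factors of complex I (Ndufaf genes) and Atp5s, an accessory factor of complex V, which the symbols also bring in. Their levels were compared between cultures of cells from the prefrontal cortex (PFC) of wild type C57BL/6 mice at postnatal day 0. Both groups were grown for 10 days in HABG medium (neurobasal medium with B27 and GlutaMAX), in 1 group with FGF2 at 5 ng/mL and in the other without FGF2, and 2 libraries of total RNA were sequenced from each. FGF2 is basic fibroblast growth factor, and the study used the mouse cultures to ask whether the effects it saw in human cultures hold in another species. The cultures hold a mixture of neurons and glia.

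In the inner membrane of the mitochondrion, complex I takes electrons from NADH and complex II takes them from succinate. Complex III passes them from ubiquinol to cytochrome c, and complex IV passes them on to oxygen. Complexes I, III and IV pump protons, and complex V, the ATP synthase, lets the protons flow back and makes ATP. Most subunits are encoded in the nucleus and a few in the mitochondrial genome, so that each complex except complex II is built from the products of both. Neurons depend strongly on this pathway, whereas astrocytes are known for a high rate of glycolysis.

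The counts on genes ranged from 9166432 to 10799886 per library, and the share of read pairs in no annotated feature was 45.0% and 45.9% with FGF2 and 43.2% in both libraries without FGF2. A count of 0 allows a level of up to 3 counts, or 0.278 to 0.327 CPM in these libraries, for counting error alone. The titles number the libraries of each group B1 and B2 without a meaning for the letter, and the methods of the study speak of technical replicates for most samples. The p-values therefore measure the spread between these libraries, which may be technical. All 37 genes of the mitochondrial genome are listed at 0 counts in every library, so the mitochondrially encoded subunits could not be compared.

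Most nuclear genes of oxidative phosphorylation had lower levels in the cultures with FGF2. Of the 94 members, 86 passed the expression filter and were tested, and 51 of these (59.3%) were lower and 3 (3.49%) were higher with FGF2 at an adjusted p-value below 0.05 (edgeR quasi-likelihood test, Benjamini-Hochberg adjustment over all 17144 tested genes). Among all tested genes 19.9% were lower and 20.7% were higher. The tested members had a median log2 fold change of -0.28, a level that fell by 17.4%, against a median of -0.00076 over all tested genes. The changes were small, and the members ranged from -0.90 to 0.45, with 77 below 0 and 9 above 0. The 3 genes that rose were Ndufc2, Cox7a2l and Atp5g2.

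In 68 of the 86 tested members (79.1%) the groups did not overlap and the level was lower with FGF2, a pattern seen in 33.4% of all tested genes. The opposite pattern was found in 5 members, against 33.6% of all tested genes. Among genes with a mean of at least 5 CPM, 50 of 83 members (60.2%) were lower, where the share over all genes of that level was 24.3%. The number of calls depended on the tool and on the libraries. With DESeq2, which the study used, 16 members (18.6%) were lower and 1 was higher, and 11.2% of all genes were lower. Without FGF2 replicate 2 the number of lower members in edgeR was 27, without no FGF2 replicate 2 it was 29, and without no FGF2 replicate 1 only 1 member remained higher. No member called in the full comparison changed sign when a library was left out. The 17 members that kept their call without each of the 4 libraries in turn were Cox7a2l, which rose, and 16 that fell, namely Ndufa8, Ndufa11, Ndufc1, Ndufaf5, Sdhb, Uqcr11, Uqcrq, Cox5a, Cox7c, Ndufa4, Atp5a1, Atp5b, Atp5c1, Atp5g1, Atp5g3 and Atp5j2. These were also the members that DESeq2 called.

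**Figure D1:**
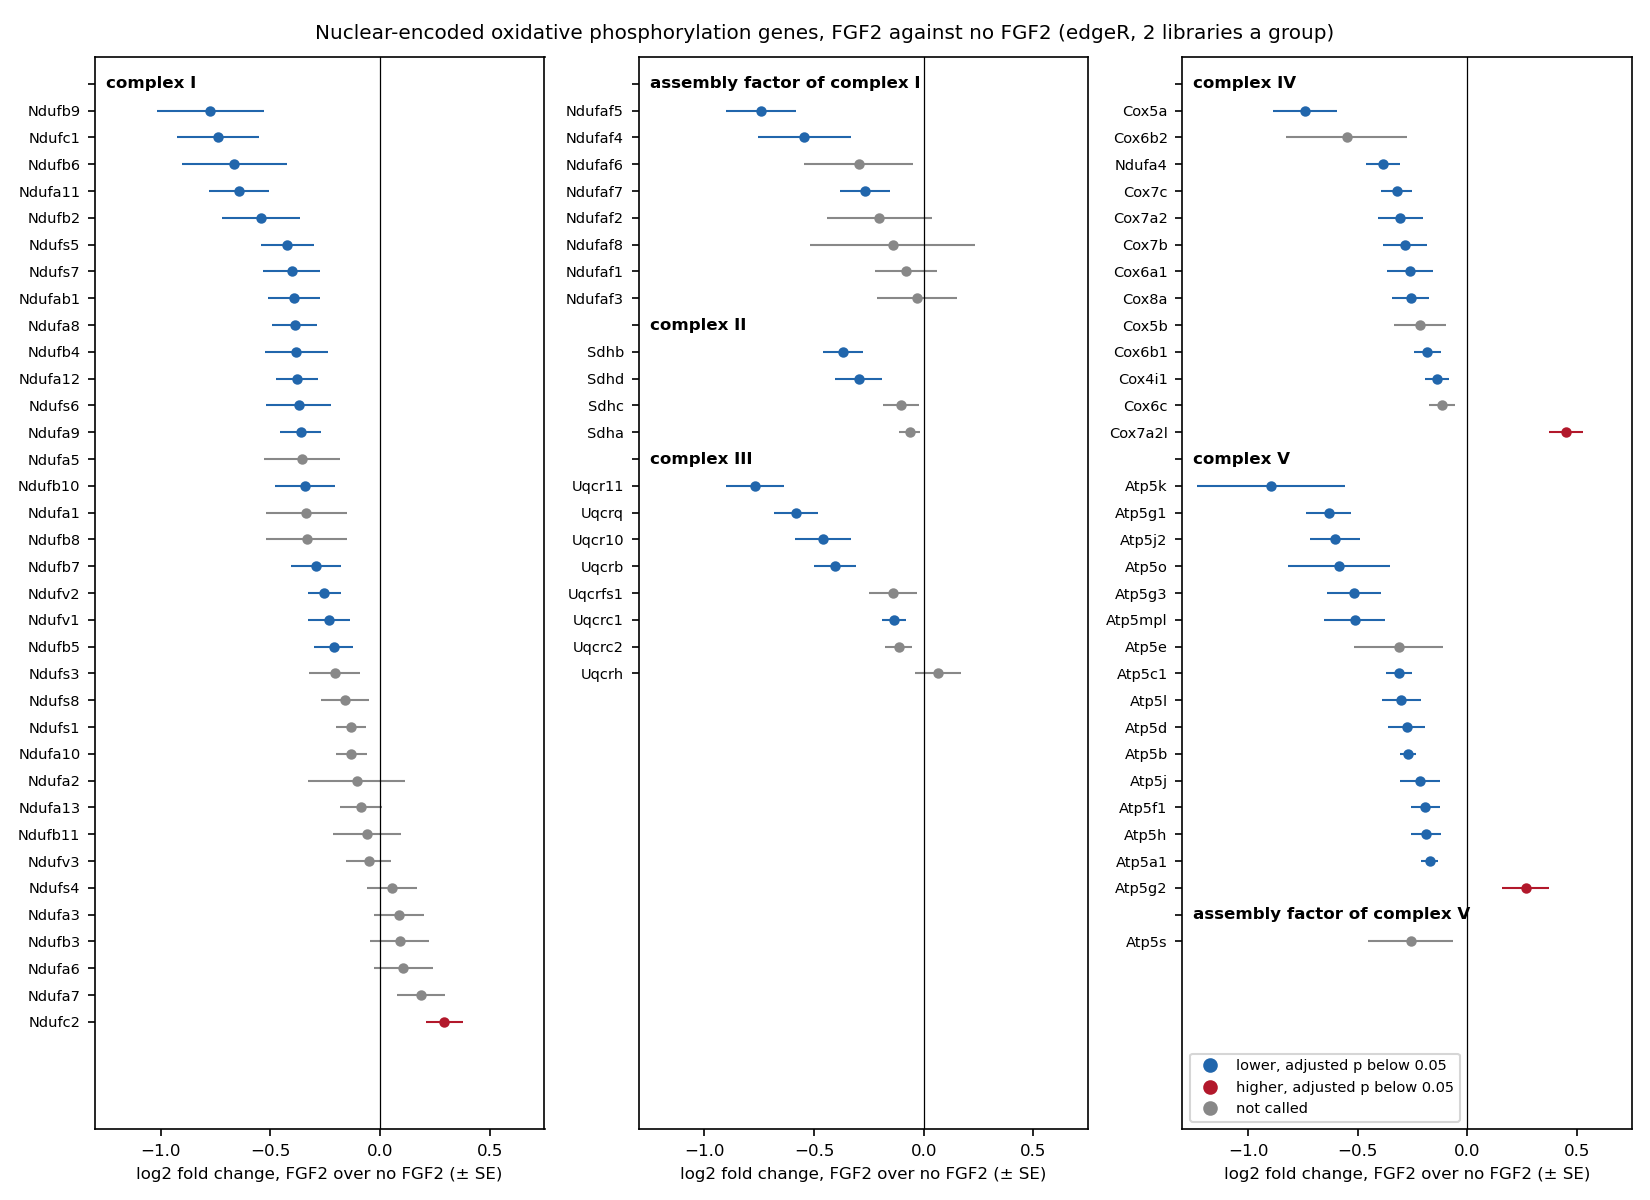
Log2 fold change of the tested members, FGF2 over no FGF2, apart from 1 that is not shown, with its standard error from edgeR, ordered within each complex; blue points are lower and red points higher at an adjusted p-value below 0.05. Most points lie left of 0, and the 3 red points are Ndufc2, Cox7a2l and Atp5g2.

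The members together took 0.444% and 0.426% of the counts on genes with FGF2 and 0.500% and 0.504% without FGF2. Their summed level was 4437 and 4264 CPM (counts relative to the TMM-scaled size of the library) in the libraries with FGF2 and 5003 and 5042 CPM in those without, and it fell by 13.4%. The libraries of the groups did not overlap in the summed level of any of the 5 complexes. The sum of complex V fell by 16%, that of complex III fell by 14.2%, that of complex I fell by 11.6%, that of complex IV fell by 11.3% and that of complex II fell by 8.64%. These sums are given without a test, and abundant genes weigh most in them.

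**Figure D2:**
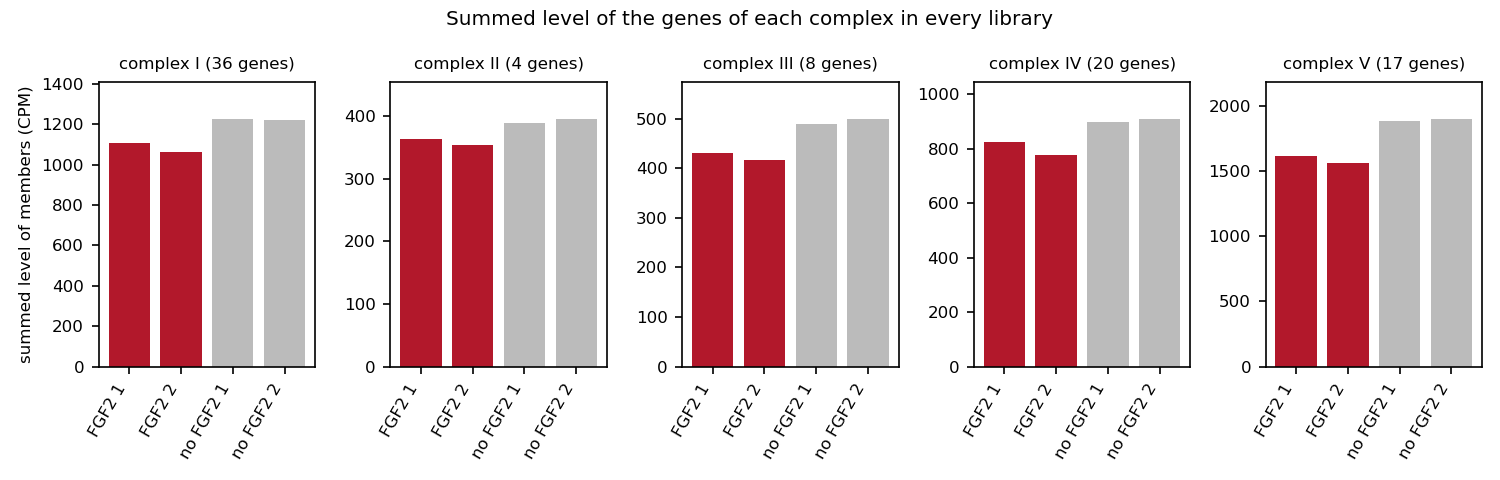
Summed level of the member genes of each complex, in CPM, with 1 bar for each library, red with FGF2 and grey without FGF2; each axis starts at 0. In each of the 5 panels both red bars are lower than both grey bars, for example 1614 and 1563 against 1881 and 1901 CPM for complex V.

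The scarcer members had the larger changes in level, which is given without a test. The 43 tested members below the median level of 86 had a median log2 fold change of -0.35 with 23 lower and none higher, and the 43 above it had a median of -0.21 with 28 lower and 3 higher. The median standard error was 0.144 in the scarcer members and 0.0847 in the others, so that a given change was called less readily in the scarcer members. The members with shorter and with longer exons had medians of -0.30 and -0.26.

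Complex I is the largest complex of the chain, and 18 of its 36 genes were lower and 1 was higher, with a median log2 fold change of -0.27. The 7 nuclear genes of its core, which carry the flavin and the iron-sulphur clusters, had a median of -0.21 and 3 were lower. Of all tested genes 19.9% were lower. The 29 accessory genes, which stabilise the core and help its assembly, had a median of -0.34, and 15 were lower and 1 was higher. With DESeq2, 3 of the 36 genes of complex I were lower, where 11.2% of all genes were lower. The median of complex I in edgeR ranged from -0.31 to -0.17 when a library was left out.

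Among the core genes, Ndufv1, which binds NADH and the flavin, was measured at 39.1 and 36.8 CPM with FGF2 and at 47.8 and 41.4 CPM without (log2 fold change -0.23, SE 0.0973, edgeR adjusted p = 0.043). Its partner Ndufv2 was at 69.2 and 64.5 CPM with FGF2 and at 80.2 and 79.2 CPM without (log2 fold change -0.25, SE 0.0757, edgeR adjusted p = 0.0029). Ndufs7, next to the ubiquinone site, was at 18.2 and 18.9 CPM with FGF2 and 25.7 and 23.4 CPM without (log2 fold change -0.40, SE 0.131, edgeR adjusted p = 0.0069). In all 3 genes the libraries with FGF2 were the lower ones. The call was lost without FGF2 replicate 2 for Ndufv1 (range -0.33 to -0.12) and Ndufv2 (range -0.31 to -0.20), and without no FGF2 replicate 1 for Ndufv1 and Ndufs7 (range -0.47 to -0.33). Ndufv1 was also not called with offsets for GC content and length (edgeR adjusted p = 0.11) or without an expression filter (edgeR adjusted p = 0.074). Ndufs1, Ndufs3 and Ndufs8 did not pass the test. Their log2 fold changes were -0.13 for Ndufs1 (adjusted p = 0.12), -0.21 for Ndufs3 (adjusted p = 0.15) and -0.16 for Ndufs8 (adjusted p = 0.26) in edgeR.

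Among the accessory genes of complex I with at least 5 CPM, Ndufb9 and Ndufc1 had the largest falls. Ndufb9 was at 4.84 and 4.26 CPM with FGF2 and 8.54 and 7.0 CPM without (log2 fold change -0.77, SE 0.245, edgeR adjusted p = 0.0055), and its fold change ranged from -0.91 to -0.62 when a library was left out, with the call lost without FGF2 replicate 2 or no FGF2 replicate 1. Of its exons, 19.5% overlap the gene Gm49356 on the same strand, so its counts may be incomplete. Ndufc1, a small membrane subunit, was at 7.91 and 7.81 CPM with FGF2 and 12.6 and 13.6 CPM without (log2 fold change -0.74, SE 0.188, edgeR adjusted p = 3.6e-04), and it kept the call without each library. Its longest transcript shares near-identical stretches with transcripts of 26 other genes, the longest of 130 bases at 95.4% identity. Ndufc2, the neighbour of Ndufc1 in the membrane arm, changed in the opposite direction. It was at 61.9 and 61.6 CPM with FGF2 and at 48.0 and 52.7 CPM without (log2 fold change 0.29, SE 0.0847, edgeR adjusted p = 0.0021), a rise that did not pass without no FGF2 replicate 1 (range 0.23 to 0.36) or with DESeq2 (adjusted p = 0.083). Per kilobase of exon, Ndufc2 had the highest level of complex I in both groups, 81.9 CPM with FGF2 and 66.8 CPM without. Ndufa11 and Ndufa8 were the other genes of complex I that kept their call without each library, and they were picked for this after their values were seen. Ndufa11 was at 14.0 and 17.3 CPM with FGF2 and at 24.4 and 24.6 CPM without (log2 fold change -0.64), and Ndufa8 was at 31.7 and 33.2 CPM with FGF2 and at 42.3 and 42.6 CPM without (log2 fold change -0.39). In both the gap between the groups was wider than the spread within them. The 17 genes of complex I that were not called ranged from -0.35 (Ndufa5) to 0.19 (Ndufa7).

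The assembly factors of complex I bring its modules together and are not part of the finished complex. All 8 had log2 fold changes below 0, with a median of -0.24, and 3 were lower, where 19.9% of all tested genes were lower. Ndufaf5, which modifies Ndufs7 during assembly, was at 12.5 and 9.74 CPM with FGF2 and at 18.6 and 18.5 CPM without (log2 fold change -0.74, SE 0.158, edgeR adjusted p = 1.5e-05). This fall was called without each library in turn. Ndufaf4 was at 6.81 and 6.39 CPM with FGF2 and 8.45 and 10.8 CPM without (log2 fold change -0.54, SE 0.213, edgeR adjusted p = 0.028), and its call was lost without FGF2 replicate 2 or no FGF2 replicate 2 (range -0.71 to -0.36). Ndufaf1 had the highest level per kilobase of the 8, 12 CPM with FGF2 and 12.7 CPM without, and did not pass the test (edgeR adjusted p = 0.70).

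Complex II, succinate dehydrogenase, links the citrate cycle to the chain and is encoded in the nucleus alone. Its catalytic subunit Sdha, which carries the flavin, had the highest level per kilobase of the 4 genes. It was at 230 and 225 CPM with FGF2 and 237 and 239 CPM without (log2 fold change -0.06, SE 0.0466), and although the libraries did not overlap the difference did not pass the test (edgeR adjusted p = 0.28). Sdhb, the iron-sulphur subunit, was at 43.7 and 39.7 CPM with FGF2 and 53.8 and 53.7 CPM without (log2 fold change -0.37, SE 0.0911, edgeR adjusted p = 2.5e-04). Sdhb was lower without each library in turn. Of the membrane anchors, Sdhd was at 33.7 and 28.0 CPM with FGF2 and 34.9 and 40.7 CPM without (log2 fold change -0.30, SE 0.106, edgeR adjusted p = 0.016), and its call was lost without FGF2 replicate 2 or no FGF2 replicate 2 (range -0.44 to -0.17). Sdhc, at -0.11 on the log2 scale, was not called (edgeR adjusted p = 0.32).

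In complex III, 5 of 8 genes were lower, none was higher and the median was -0.27. The shares over all tested genes were 19.9% lower and 20.7% higher. Among the members, the fall was larger in the small accessory genes, with a median of -0.46 over 5 genes and 4 of them lower. The core had a median of -0.14 over 3 genes, and 1 of them was lower. This difference was not tested. Cyc1, the haem subunit of complex III, is not among these core genes, because its symbol does not begin with Uqcr. At -0.54 on the log2 scale, Cyc1 lay below the accessory median, so the contrast holds only for the members. Uqcr11 was at 16.9 and 15.1 CPM with FGF2 and at 26.6 and 28.0 CPM without (log2 fold change -0.77, SE 0.132, edgeR adjusted p = 4.5e-08). Uqcrq, which lies against the mitochondrially encoded cytochrome b, was at 33.4 and 28.0 CPM with FGF2 and 44.6 and 47.1 CPM without (log2 fold change -0.58, SE 0.102, edgeR adjusted p = 8.0e-08). Both kept their call without each library and with DESeq2. Uqcrb, which over both groups had the highest level per kilobase of the complex, was at 29.8 and 42.0 CPM with FGF2 and 42.5 and 52.8 CPM without (log2 fold change -0.40, SE 0.097, edgeR adjusted p = 1.5e-04). Its libraries spread widely, the groups nearly met, and the call was lost without FGF2 replicate 1 or no FGF2 replicate 2 (range -0.68 to -0.19). Uqcrb and Uqcr11 share near-identical stretches with other genes. Among the core genes, Uqcrc1 passed at -0.14 (edgeR adjusted p = 0.036) and, of the libraries left out in turn, kept this call only without FGF2 replicate 1. With offsets for GC content and length Uqcrc1 was not called (edgeR adjusted p = 0.13) and Uqcrc2 was (log2 fold change -0.17, edgeR adjusted p = 0.014). Without an expression filter Uqcrc1 was not called (edgeR adjusted p = 0.066). In the full comparison Uqcrc2 (-0.11, edgeR adjusted p = 0.14) and the Rieske protein Uqcrfs1 (-0.14, edgeR adjusted p = 0.33) were not called. Without no FGF2 replicate 2, 3 genes of complex III were lower.

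Complex IV, cytochrome c oxidase, had 20 member genes, of which 13 were tested, 9 were lower and 1 was higher, with a median of -0.26. The number of lower genes was 4 without FGF2 replicate 2 and 5 without either library of the group without FGF2, and DESeq2 called 3. Over all genes, 19.9% were lower and 20.7% higher in edgeR, and 11.2% were lower with DESeq2. Cox5a, a subunit on the matrix side, was at 12.5 and 14.2 CPM with FGF2 and 20.3 and 24.4 CPM without (log2 fold change -0.74, SE 0.144, edgeR adjusted p = 1.8e-06). Ndufa4, named after complex I but counted here with complex IV, to which it belongs, was at 64.2 and 60.4 CPM with FGF2 and 82.5 and 80.1 CPM without (log2 fold change -0.38, SE 0.0765, edgeR adjusted p = 3.2e-06). Both falls were called without each library. So was that of Cox7c, which was picked after its values were seen and was at 78.9 and 68.9 CPM with FGF2 and at 97.9 and 86.9 CPM without (log2 fold change -0.32, SE 0.072, edgeR adjusted p = 3.8e-05). Cox4i1, which makes the common form of subunit IV, was at 152 and 144 CPM with FGF2 and at 160 and 166 CPM without (log2 fold change -0.14, SE 0.0547, edgeR adjusted p = 0.029), and among the libraries left out in turn it kept its call only without FGF2 replicate 1. With offsets for GC content and length its log2 fold change was -0.07 and was not called (edgeR adjusted p = 0.32), nor was it without an expression filter (edgeR adjusted p = 0.054). Cox5b was not called (log2 fold change -0.22, edgeR adjusted p = 0.13), and FGF2 replicate 1, at 27.9 CPM, lay among the libraries without FGF2, at 27.3 and 30.8 CPM. Cox6b1 had the highest level per kilobase of all members, 160 CPM with FGF2 and 181 CPM without, and a log2 fold change of -0.18 (SE 0.0611, edgeR adjusted p = 0.0087) that was lost without FGF2 replicate 2 or no FGF2 replicate 1 (range -0.23 to -0.14).

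Cox7a2l rose while its relative Cox7a2 fell. Cox7a2l is known for a factor that joins complexes III and IV into supercomplexes, and Cox7a2 encodes the subunit of complex IV that it resembles. Whether the product of Cox7a2l does this in the mouse strain used here was not tested. Cox7a2l (chromosome 17 of mm10, from 83501918 to 83517330) was at 84.5 and 80.0 CPM with FGF2 and 63.0 and 57.4 CPM without (log2 fold change 0.45, SE 0.0768, edgeR adjusted p = 3.7e-08). This was the largest rise among the members, and it was called without each library and with DESeq2 (adjusted p = 7.2e-04). Its longest transcript has a stretch of 201 bases that is identical to part of Gm6969. Cox7a2 (chromosome 9, from 79755361 to 79759878) was at 31.9 CPM in both libraries with FGF2 and at 37.1 and 41.7 CPM without (log2 fold change -0.31, SE 0.104, edgeR adjusted p = 0.011). Its call was lost without no FGF2 replicate 2 (range -0.39 to -0.22).

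**Figure D3:**
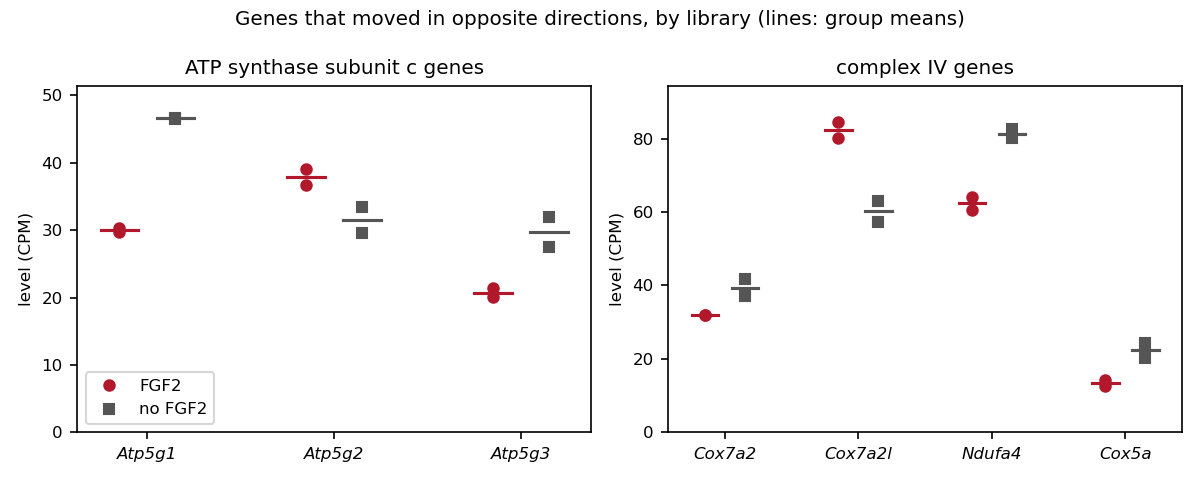
Level in CPM of the 3 genes of ATP synthase subunit c (left) and of 4 genes of complex IV (right) in every library, red circles with FGF2 and grey squares without FGF2, with a line at each group mean; the axes start at 0. Atp5g2 and Cox7a2l are higher in both libraries with FGF2, and the other 5 genes are lower in both.

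The isoforms of complex IV known from muscle, testis, lung or hypoxic cells were nearly absent. Cox4i2, Cox6a2, Cox7a1, Cox7b2, Cox8b, Cox8c and Ndufa4l2 did not pass the filter and had at most 14 counts in a library. Cox7b2 had no count in any library. Cox7a1 had 14 counts in FGF2 replicate 1 and 3, 5 and 6 counts in the other libraries, and no difference was detectable at this depth. Cox6b2 was measured at 4.18 and 3.85 CPM with FGF2 and at 4.84 and 6.91 CPM without, and did not pass the test (log2 fold change -0.55, edgeR adjusted p = 0.098). Its share of the level per kilobase of Cox6b1 and Cox6b2 together was 2.22% ± 0.0330 with FGF2 and 2.85% ± 0.769 without (SD, n = 2). An exact permutation test over 2 libraries against 2 cannot give a p-value below 0.33, so no shift between isoforms could pass it.

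Complex V had the highest share of lower genes of the 5 complexes, with 14 of 16 tested genes lower, 1 higher and a median of -0.31. With DESeq2 6 were lower, and without no FGF2 replicate 2 edgeR called 7. In the catalytic part, F1, 4 of 5 genes were lower with a median of -0.28. In the membrane part and stalk (Fo) 10 of 11 tested genes were lower and 1 was higher with a median of -0.51. Over all genes, 19.9% were lower and 20.7% higher in edgeR, and 11.2% were lower with DESeq2. Atp5b, the catalytic beta subunit (chromosome 10, from 128083273 to 128090391), was at 594 and 581 CPM with FGF2 and 716 and 704 CPM without (log2 fold change -0.27, SE 0.0357, edgeR adjusted p = 3.0e-13). Its group means were 587 ± 9.36 and 710 ± 8.60 CPM (SD, n = 2), and it had the smallest standard error of the called members. Atp5a1, the alpha subunit, was at 425 and 402 CPM with FGF2 and at 469 and 463 CPM without (log2 fold change -0.17, SE 0.0387, edgeR adjusted p = 4.7e-05). Atp5c1, the central shaft, was at 119 and 123 CPM with FGF2 and at 145 and 155 CPM without (log2 fold change -0.31, SE 0.0582, edgeR adjusted p = 5.7e-07). These 3 genes form the rotary motor, and all were lower without each library and with DESeq2.

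Of the Fo and stalk genes, Atp5j2, a small membrane subunit, was at 25.9 and 21.7 CPM with FGF2 and at 32.0 and 40.2 CPM without (log2 fold change -0.60, SE 0.114, edgeR adjusted p = 8.5e-07). It kept its call without each library in turn. Atp5k, below 5 CPM in every library, had the lowest log2 fold change of all members, -0.90 (SE 0.336, edgeR adjusted p = 0.022), and lost its call when any library but FGF2 replicate 1 was left out (range -1.28 to -0.58); it was chosen after its values were seen. Atp5o was annotated under 2 identifiers, of which the other has 0 counts in every library and lies wholly within exons of Atp5o and Donson on the same strand. Atp5e was the only tested gene of complex V that was not called (log2 fold change -0.31, edgeR adjusted p = 0.22). It was at 8.24 and 7.50 CPM with FGF2 and at 10.3 and 9.21 CPM without. Atp5s, with 8.57 and 8.92 CPM with FGF2 and 11.8 and 9.21 CPM without, was not called (edgeR adjusted p = 0.30).

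Subunit c forms the rotating ring of the ATP synthase, and Atp5g1, Atp5g2 and Atp5g3 encode the same mature protein with different targeting peptides. Atp5g1 (chromosome 11, from 96068852 to 96075670) was at 29.8 and 30.3 CPM with FGF2 and at 46.7 and 46.5 CPM without (log2 fold change -0.63, SE 0.102, edgeR adjusted p = 4.3e-09). Atp5g3 (chromosome 2, from 73908447 to 73911326) was at 20.1 and 21.4 CPM with FGF2 and at 32.0 and 27.5 CPM without (log2 fold change -0.52, SE 0.122, edgeR adjusted p = 1.1e-04). Both fell, and both were called without each library and with DESeq2. Atp5g2 (chromosome 15, from 102662864 to 102672352) was at 39.1 and 36.7 CPM with FGF2 and at 29.6 and 33.4 CPM without (log2 fold change 0.26, SE 0.106, edgeR adjusted p = 0.033). This rise was weaker, since it was lost without FGF2 replicate 1 or no FGF2 replicate 1 (range 0.18 to 0.36), with upper quartile scaling in edgeR (adjusted p = 0.058) and with DESeq2 (adjusted p = 0.27). The summed level of the 3 genes was 89.0 and 88.4 CPM with FGF2 and 108 CPM in both libraries without. Per kilobase of exon, the share of Atp5g2 in the 3 genes was 59.1% ± 1.85 with FGF2 and 44.9% ± 3.69 without (SD, n = 2), and the groups did not overlap (two-sided exact permutation test, p = 0.33, which is the lowest that this design allows). This share depends on the annotated exon lengths, which were 4912 bases for Atp5g1 and 1675 for Atp5g2. By CPM alone the share of Atp5g2 was 44.0% and 41.5% with FGF2 and 27.3% and 31.1% without. The longest transcript of Atp5g1 shares 411 bases at 99.8% identity with Gm10039, and that of Atp5g2 shares 127 identical bases with Gm10175. Reads that fit both genes can be lost to the mapping quality filter, so the levels of Atp5g1 and Atp5g2 can be too low.

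Genes of oxidative phosphorylation are known to share binding motifs for the nuclear respiratory factor NRF1, for ETS factors such as GABPA and for YY1 near their starts. The motifs searched were GCGCNTGCG for NRF1, CCGGAAG for ETS factors and AAGATGGC for YY1, on both strands of a window of 300 bases, with 250 bases before the start and 50 after it, in the promoters of RefSeq (GRCm38.p6). For 73 of the 86 tested members the table held a promoter, 78 promoters in all. The NRF1 motif was in 26 of these 78 (33.3%) and in 6.31% of all 32851 promoters, the ETS motif in 18 (23.1%) and in 8.86% of all, and the YY1 motif in 11 (14.1%) and in 2.75% of all. Among the promoters of lower members 21 of 48 held the NRF1 motif, and among those of members that were not called 4 of 27 did. For the ETS motif these counts were 12 of 48 and 6 of 27, and for the YY1 motif 7 of 48 and 4 of 27. Of the 3 members that rose, Atp5g2 held the NRF1 motif, and Ndufc2 and Cox7a2l held none of the 3 motifs. These counts describe the letters of the windows without a test, base composition was not matched, and overlapping NRF1 matches in a window count as 1 window.

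The stretches around the match nearest to the start are shown, as 30 bases of the strand of the gene, for the 2 genes of subunit c with a match and for members with the largest falls, so that a gene that rose can be read beside genes that fell. The motif is in capitals, and where it reads on the other strand the capitals show its reverse complement.
Atp5g2, NRF1, chr15:102671070-102671099, minus strand: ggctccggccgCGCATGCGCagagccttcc
Atp5g3, NRF1, chr2:73911296-73911325, minus strand: agagccgcaccGCGCTTGCGcgcccagccc
Uqcr11, NRF1, chr10:80406808-80406837, minus strand: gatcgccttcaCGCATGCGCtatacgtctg
Uqcr11, ETS, chr10:80406870-80406899, minus strand: tttctctcctccCCGGAAGtagatgtcaat
Ndufaf5, NRF1, chr2:140170651-140170680, plus strand: tagtcccgttgGCGCATGCGcctaatagaa
Ndufaf4, NRF1, chr4:24897960-24897989, plus strand: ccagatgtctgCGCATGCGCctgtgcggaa
Sdhb, ETS, chr4:140961265-140961294, plus strand: ggctcggagaaaCCGGAAGcggccttccac
Ndufc1, YY1, chr3:51408915-51408944, minus strand: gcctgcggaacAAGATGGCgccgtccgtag
Atp5j2, YY1, chr5:145191500-145191529, minus strand: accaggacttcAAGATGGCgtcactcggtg

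The NRF1 match lay before the start in Atp5g2, which rose, and after the start in Atp5g3, which fell. The nearest NRF1 match also lay before the start in Ndufaf4 and Sdhd and after it in Ndufaf5, all of which fell. In Uqcr11, which fell too, the match of 9 bases began 5 bases before the start and ran across it. Atp5g1, which fell most of the 3 genes of subunit c, had none of the motifs in its window. Cox5a and Ndufa4 had none either.

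Gabpa, which encodes an ETS factor, was higher with FGF2, whereas the regulators of mitochondrial biogenesis as a list were near the background. Of 15 such genes 4 (26.7%) were higher and 2 (13.3%) were lower, against 20.7% and 19.9% of all tested genes, and the median was 0.12. Gabpa was at 107 and 111 CPM with FGF2 and at 63.4 and 71.2 CPM without (log2 fold change 0.70, SE 0.071, edgeR adjusted p = 1.6e-21), and DESeq2 called it too (adjusted p = 7.2e-10). Nrf1 rose by 0.25 on the log2 scale (edgeR adjusted p = 0.023) and Yy1 by 0.27 (edgeR adjusted p = 0.0013), but neither passed with DESeq2 (adjusted p = 0.23 and 0.055). All 3 encode factors whose motifs were searched above. Ppargc1b, a coactivator, was at 6.81 and 7.0 CPM with FGF2 and at 10.6 and 13.6 CPM without (log2 fold change -0.81, SE 0.198, edgeR adjusted p = 2.0e-04). Its relative Ppargc1a was not called (log2 fold change -0.12, edgeR adjusted p = 0.22), and neither was Tfam (log2 fold change -0.13, edgeR adjusted p = 0.43), which encodes the transcription factor of mitochondrial DNA. Apart from Gabpa and Ppargc1b, which follow the naming rule, these regulators were chosen after their values were seen.

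Gabpa and the member Atp5j lie on opposite strands of chromosome 16. RefSeq gives Atp5j 2 starts, of which one lies 148 bases from that of Gabpa with the genes pointing away from each other, and the other lies 501 bases inside Gabpa, so that the genes overlap. The longest transcript of Atp5j shares a stretch of 175 bases with a transcript of Gabpa. Reads there cannot be told apart without strand, and the strand setting of the counting is not given in the sources used here. Atp5j, a stalk subunit, was at 44.1 and 44.7 CPM with FGF2 and at 51.9 and 51.2 CPM without (log2 fold change -0.22, SE 0.0907, edgeR adjusted p = 0.044), and so fell where its neighbour rose. Its call was lost without an expression filter (adjusted p = 0.075 in edgeR) and whichever of the 4 libraries was left out (range -0.23 to -0.21), although the libraries of a group differed little. The stretch between the nearer starts holds an ETS and a YY1 motif, shown on the strand of Atp5j.
Atp5j, ETS, chr16:84835020-84835049, minus strand: tagctgagggacCCGGAAGcacttaccctc
Atp5j, YY1, chr16:84835046-84835075, minus strand: aaagtgtaggaAAGATGGCggagtcttagc

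Other genes of mitochondrial energy metabolism were lower too, in smaller shares for most lists. Among the electron carriers and related genes of the chain, 4 of 12 tested genes (33.3%) were lower and 2 (16.7%) higher. Over all tested genes these shares were 19.9% and 20.7%. Cyc1, the haem subunit of complex III that hands electrons to cytochrome c, fell by 0.54 (edgeR adjusted p = 2.7e-07) and Cycs, cytochrome c, fell by 0.49 on the log2 scale (edgeR adjusted p = 3.0e-06). Higd1a, which associates with complex IV, fell by 0.79 (edgeR adjusted p = 1.8e-06), whereas Sqor, which feeds electrons from sulphide to ubiquinone, rose by 0.57 (edgeR adjusted p = 0.046). Of 17 genes of the citrate cycle and pyruvate dehydrogenase, 10 were lower and 1 was higher, with Dlat at -0.39 and Mdh2 at -0.36. Of 24 genes of import, porins and carriers, 11 were lower and none was higher, with Tomm40 at -0.40 and Tomm70a at -0.38. The medians of these lists were -0.19, -0.15 and -0.19. Further assembly factors of the complexes had 9 of 41 lower (22.0%), close to the share over all genes, and none higher, and Cox18 and Cox11, which serve complex IV, fell by 1.05 and 0.60. The mitochondrial ribosome, which makes the mitochondrially encoded subunits, had few changes, with 5 of 77 genes lower and 3 higher and a median of -0.08. Its largest falls were in Mrpl20 (-0.73) and Mrpl57 (-0.54). DESeq2 did not call Sqor, Cox11, Mrpl20 or Mrpl57 (adjusted p = 0.31, 0.19, 0.077 and 0.23).

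**Figure D4:**
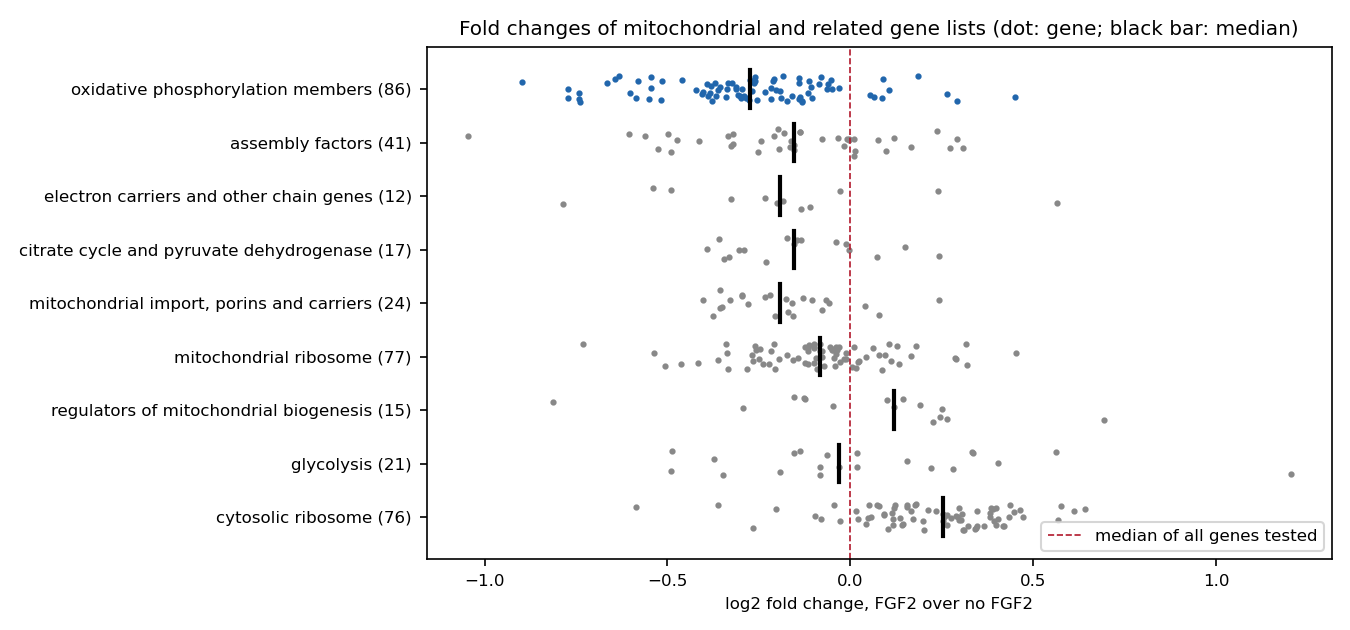
Log2 fold change (FGF2 over no FGF2) of each tested gene of 9 lists, with the number of genes in brackets; a black bar marks the median of a list and the dashed line the median of all tested genes. The oxidative phosphorylation members have the lowest median of the lists shown, -0.28, and the cytosolic ribosome the highest, 0.25.

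Markers of the cell types in the cultures differed between the groups along with these genes. Of 12 pan-neuronal markers 10 were lower and 1 was higher (median -0.46), and their summed level was 3723 and 3877 CPM with FGF2 and 5471 and 5446 CPM without. Tubb3 and Rbfox3 fell by 1.10 and 0.90 on the log2 scale. Of 11 astrocyte markers 8 were higher and 2 were lower (median 0.40), with summed levels of 13615 and 13450 against 8775 and 8693 CPM, and Gfap and Aqp4 rose by 1.06 and 0.78. All 9 tested oligodendrocyte lineage markers were higher (median 2.05), with sums of 1859 and 1868 against 558 and 567 CPM, and Mag rose by 2.58. Microglia markers summed to 8.94 to 20.4 CPM in all libraries, with 2 of 4 tested markers higher (Csf1r 1.43 and Cx3cr1 1.19). Of 8 tested fibroblast, mural and endothelial markers, 3 (37.5%) were lower and 2 (25%) higher, with Col1a1 at -2.18 and Rgs5 at 1.89. Of all tested genes 19.9% were lower and 20.7% higher. Of 8 proliferation markers, 6 were lower and none higher (median -0.53), with Ccnb1 at -0.79 and Cdk1 at -0.69. DESeq2 did not call Cx3cr1 or Cdk1 (adjusted p = 0.18 and 0.092). The part of these differences in the lower levels of the oxidative phosphorylation genes was not tested, and in bulk RNA fewer cells of a type and less RNA per cell cannot be told apart.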

How the data were processed

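RNA was extracted with Trizol and libraries were made with a total RNA kit and sequenced in pairs on a NovaSeq. The submitters' processing notes name HISAT2 2.1.0, mm10 and HTSeq 0.11.2; the paper states that reads with a mapping quality of at least 20 were kept. The authors deposited raw counts per gene without normalization. The annotation release is not given in the sources used here. Of 55421 genes, 55240 (99.7%) had their identifier in GENCODE M21, the source of symbols, coordinates and exon lengths. Library totals and tests leave out 5 rows without a gene, which hold the read pairs in no feature (43.2% to 45.9%) and ambiguous pairs (1.47% to 1.76%).

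Counts were tested with the quasi-likelihood test of edgeR 4.0.16 (R 4.3.3) after TMM scaling (factors 0.993 to 1.01), filterByExpr with the groups and robust estimation, with Benjamini-Hochberg adjustment over 17144 genes and a threshold of 0.05. The replicates of a group differed by more than sampling noise (chi-square per degree of freedom 2.28 and 1.76), so each counted as 1 library. CPM are TMM-scaled, and levels per kilobase use the exon length of the gene. Near-identical stretches (at least 100 bases at 95% identity in another gene's transcript) were found with BLAST 2.17.0 from the longest transcript of each member. Matches on either strand counted, so a stretch can come from a gene that overlaps on the other strand, such as Gabpa for Atp5j. Promoters and their coordinates came from RefSeq (GRCm38.p6, the build of mm10), and 2 members were matched by an older symbol. The scripts were tested on simulated data.

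Named genes are the core catalytic subunits, the 2 largest rises and falls in each complex among called genes with at least 5 CPM and groups that do not overlap, tissue-restricted isoforms, the highest level per kilobase of each complex, members that fail the filter, and the 2 largest changes in each of 15 other lists with Cyc1 and Cycs; a few of them are not reported here. The members and lists were chosen with earlier results of these data known. The pattern of the cytosolic ribosome list was narrowed afterwards to leave out S6 kinases. The alternatives tried were DESeq2 1.42.0, limma-voom 3.58.1 and scaling by RLE, by upper quartile or by total count. Also tried were no filter, a minimum of 10 counts in each library and a replicate block. Lowess offsets (span 0.3) for GC content and length were tried with or without that block. The others were each library left out, a threshold of 0.01, members with near-identical stretches left out, and Ndufa4 counted with complex I. Members with at least 10% of their exons shared with another gene on the same strand were left out as an alternative chosen after seeing the data.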

Additional observations from a re-analysis of the deposited data

How the results depend on the processing

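The median and the summed level of the members kept their direction under every alternative run, and RLE scaling, total count scaling and limma-voom changed no call of the 86 tested members. DESeq2 changed most: 16 members were lower and 1 higher, with 3, 1, 2, 3 and 6 lower in complexes I to V, and 100 in place of 154 genes of the other lists were called; the cause was not tested. Without an expression filter 41 members were lower, and with upper quartile scaling 52 were lower and 2 higher. At a threshold of 0.01, 31 members were lower, with 11, 1, 5 and 9 in complexes I, II, IV and V. With members that share a near-identical stretch left out, and so fewer members counted, 25 were lower and 1 higher. The lower members were 8, 2, 5 and 6 in complexes I, III, IV and V. The median of complex III was then -0.14, and the log2 ratios of the sums of complexes III and IV were -0.17 and -0.26. With GC and length offsets 45 members were lower, 14 in complex I and 7 in complex IV, and the median of complex V was -0.36, without and with the replicate block. With each library left out in turn, which leaves a group with 1 library assumed to vary like the others, 27 to 47 members were lower and 1 to 3 higher; the ranges were 7 to 17 in complex I (median -0.31 to -0.17), 1 to 2 in complex II, 3 to 4 in complex III, 4 to 9 in complex IV and 7 to 13 in complex V. Same-numbered libraries showed no shared deviation across genes (correlation 0.0046), which cannot show whether they came from the same preparation. With the replicate block 48 members were lower and 3 higher, and Ndufb5, Ndufv1 and Ndufaf7 lost their calls (edgeR adjusted p = 0.051, 0.051 and 0.056). At this depth, changes near the median of the members were below what many of the scarcer genes could show.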

Other observations

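Genes of glycolysis changed in both directions, with 8 of 21 tested genes (38.1%) higher, 7 (33.3%) lower and a median log2 fold change of -0.03. Of all tested genes 20.7% were higher and 19.9% lower. Hk2, a hexokinase, was at 8.79 and 6.19 CPM with FGF2 and 4.08 and 2.40 CPM without (log2 fold change 1.2, edgeR adjusted p = 4.6e-05), and Pfkl, the liver form of phosphofructokinase, was at 59.9 and 62.5 CPM with FGF2 and 40.4 and 42.4 CPM without (log2 fold change 0.56, edgeR adjusted p = 1.8e-09). Among genes chosen after their values were seen, Hk1 and Pfkm fell by 0.37 and 0.35 on the log2 scale (edgeR adjusted p = 5.5e-17 and 3.9e-08). Pfkp, the platelet form of phosphofructokinase, was at 393 and 377 CPM with FGF2 and at 381 and 380 CPM without, and was not called (log2 fold change 0.02, edgeR adjusted p = 0.76). The glucose transporter Slc2a3 and the enolase Eno2, both known from neurons, fell by 0.49 each (edgeR adjusted p = 1.5e-08 and 1.9e-12). Ldha and Ldhb, lactate dehydrogenases, rose by 0.22 and 0.28 (edgeR adjusted p = 4.6e-04 and 6.1e-09).

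Genes of the cytosolic ribosome were largely higher with FGF2. Of 76 tested genes 45 were higher and 1, Rps29 (log2 fold change -0.36, chosen after its values were seen, and not called by DESeq2, adjusted p = 0.26), was lower, and the median was 0.25. Over all tested genes 20.7% were higher and 19.9% were lower. The summed level of the ribosomal genes was 10415 and 10014 CPM with FGF2 and 8275 and 8408 CPM without. Rpl5 was at 334 and 332 CPM with FGF2 and at 217 and 210 CPM without (log2 fold change 0.64, edgeR adjusted p = 4.5e-45).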
